A study of Mus musculus with 9 samples.

Results

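The transcripts of 9 tight junction genes were examined in mouse primary renal tubular epithelial cells. They were the claudins Cldn1, Cldn2, Cldn3, Cldn4, Cldn6, Cldn7 and Cldn8, the membrane protein occludin (Ocln), and the scaffold Tjp1, which encodes zonula occludens 1. The genes were chosen by name, with earlier results of these data known. All 9 were found among the 31167 genes of the deposited table. Their counts, and those of gene lists chosen in the same way, only describe these data when set beside all genes. The cells came from C57BL/6 kidney and were divided into 3 groups of 3 libraries each. Sham cells were the negative control and, as the study describes them, were left untreated. H/R cells were kept in glucose-free medium at 1.0% oxygen for 6 h and then returned to complete medium with normal oxygen for 18 h, a culture model of ischemia and reperfusion. EGR1OV cells received a plasmid for overexpression of Egr1, a zinc finger transcription factor of the immediate early response, which in the study's in vitro work was driven by the CMV promoter. The group labels give no H/R for the EGR1OV libraries. No empty-vector group was among the 3, so an effect of Egr1 and an effect of transfection cannot be told apart. The labels do not say whether the 3 libraries of a group came from separate cultures, so the p-values measure only the spread between these libraries, which may be technical.

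Tight junctions seal the space between neighbouring epithelial cells. Claudins form the strands of the junction, and which claudins a cell makes sets how leaky the seal is and to which ions. Occludin is a further strand protein, and zonula occludens 1 ties the strand proteins to the actin cytoskeleton under the membrane. Along the nephron the claudins differ by segment. Cldn2 forms the cation and water pores of the leaky proximal tubule, whereas Cldn3, Cldn4, Cldn7 and Cldn8 are known from the tight distal segments and the collecting duct.

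All values are FPKM, the fragments of a gene divided by its exon length in kilobases and by the size of the library. Levels of genes can be set beside each other within a library. The libraries held 16183617 to 18384022 reads, as recovered from the smallest steps of the values. Egr1 was measured at 6.20, 6.91 and 6.09 FPKM in Sham, at 8.57, 7.59 and 7.48 FPKM in H/R and at 45.7, 42.2 and 40.1 FPKM in EGR1OV, so the EGR1OV libraries went with their label. These values do not separate transcripts of the plasmid from those of the cells' own gene. On the log2(FPKM + 1) scale, Egr1 was 2.56 ± 0.066 (SE) higher in EGR1OV than in Sham, with an adjusted p of 2.19e-09 by limma. The epithelial markers Epcam, Cdh1, Cdh16, Pax8 and the keratins Krt8, Krt18 and Krt19 were all detected. The defining transporter of the proximal tubule Slc22a6 was at 0 in every library, and Cubn, Slc34a1, Slc5a2, Slc5a12 and Slc27a2 each averaged under 0.5 FPKM over the 9 libraries, while Lap3, Lrp2, Ggt1 and Aqp1 of the same list of 10 were at 24.3, 3.60, 1.54 and 1.3 FPKM on average in Sham. Umod, the defining gene of the thick ascending limb, was also at 0. In these bulk samples, fewer cells of a type and less RNA per cell cannot be told apart.

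The genes lie on different chromosomes with the exception of 2 pairs. Positions are those of the table and build GRCm38. Cldn3 (ENSMUSG00000070473, chr5:134986214-134987472, plus strand) and Cldn4 (ENSMUSG00000047501, chr5:134945119-134946934, minus strand) are single-exon genes that point away from each other, with 39279 bp between them. Cldn1 (ENSMUSG00000022512, chr16:26356642-26371841, minus strand) and the single-exon gene Cldn8 (ENSMUSG00000050520, chr16:88560828-88563183, minus strand) share a chromosome but are far apart. The other claudins are Cldn2 (ENSMUSG00000047230, chrX:139800828-139811386, plus strand), Cldn6 (ENSMUSG00000023906, chr17:23679365-23682446, plus strand) and Cldn7 (ENSMUSG00000018569, chr11:69964779-69967885, plus strand). Ocln (ENSMUSG00000021638) spans chr13:100496507-100552718 and Tjp1 (ENSMUSG00000030516) spans chr7:65296165-65527781, both on the minus strand. An antisense gene, Wbscr25, overlaps the exon of Cldn3. Whether the authors' counting used strand is not given in the sources used here, so reads of these overlapping genes may not be separable.

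The promoter windows of the genes were read because EGR1 binds a GC-rich motif. RefSeq (GRCm38.p6) gave 10 windows for 8 of the 9 genes, from 250 bases before to 50 bases after a start, and none was found for Cldn8. The windows shown are those of the genes called in EGR1OV against Sham or EGR1OV against H/R, and of Tjp1, which holds a match to the EGR1 core. Cldn7 and Ocln have 2 windows each, which overlap for Ocln, and the one with a match is shown. Each is printed on its gene's strand, 5′ to 3′, up to 30 bases after the start. Capitals mark matches, on either strand, to the EGR1 core GCGNGGGCG, the GC box GGGCGG or the E-box CAGGTG, the motif of the SNAI and ZEB repressors. The RefSeq start of Tjp1 lies inside the span that the table gives the gene. The intervals, in the order printed, are chr16:26371810-26372089 (minus strand), chr17:23679115-23679394 (plus strand), chr11:69965171-69965450 (plus strand), chr13:100552689-100552968 (minus strand) and chr7:65371215-65371494 (minus strand).
Cldn1: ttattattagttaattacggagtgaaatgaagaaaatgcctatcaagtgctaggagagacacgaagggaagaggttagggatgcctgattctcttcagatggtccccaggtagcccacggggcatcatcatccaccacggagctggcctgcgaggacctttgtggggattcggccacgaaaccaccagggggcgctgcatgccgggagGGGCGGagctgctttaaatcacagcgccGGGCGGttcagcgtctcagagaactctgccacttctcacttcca
Cldn6: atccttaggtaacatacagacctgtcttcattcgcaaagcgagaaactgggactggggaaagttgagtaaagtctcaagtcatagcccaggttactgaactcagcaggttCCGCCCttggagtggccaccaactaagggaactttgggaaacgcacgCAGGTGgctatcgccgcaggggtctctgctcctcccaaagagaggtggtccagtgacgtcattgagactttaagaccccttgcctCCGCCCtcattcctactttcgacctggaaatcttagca
Cldn7, second start: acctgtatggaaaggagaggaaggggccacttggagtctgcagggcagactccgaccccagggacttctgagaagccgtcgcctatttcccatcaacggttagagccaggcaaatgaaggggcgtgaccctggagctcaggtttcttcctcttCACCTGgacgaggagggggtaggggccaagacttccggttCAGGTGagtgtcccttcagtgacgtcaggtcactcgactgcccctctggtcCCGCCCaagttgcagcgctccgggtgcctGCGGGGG
Ocln, first start: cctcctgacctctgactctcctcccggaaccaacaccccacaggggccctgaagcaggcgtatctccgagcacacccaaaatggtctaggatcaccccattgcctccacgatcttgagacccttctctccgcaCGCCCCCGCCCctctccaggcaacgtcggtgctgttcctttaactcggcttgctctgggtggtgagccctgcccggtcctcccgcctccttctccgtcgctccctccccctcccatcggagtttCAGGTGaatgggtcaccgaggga
Tjp1: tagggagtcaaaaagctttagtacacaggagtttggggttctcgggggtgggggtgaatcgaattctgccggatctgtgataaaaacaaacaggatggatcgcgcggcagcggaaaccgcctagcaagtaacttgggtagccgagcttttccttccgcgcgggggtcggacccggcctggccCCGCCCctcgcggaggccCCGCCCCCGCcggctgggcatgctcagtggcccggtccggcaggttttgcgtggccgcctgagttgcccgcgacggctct
The EGR1 core was matched in 3 of the 10 windows, at 1 place in each, beside 5.55% of all 32851 windows of this length. In Ocln the match CGCCCCCGC lay from base -117 to -109 relative to the start, and in Tjp1 the same letters lay from -49 to -41, both overlapping a GC box. In Cldn7 the match GCGGGGGCG lay from base 24 to 32 after the second start, so it runs past the end of the printed stretch, and the window of the first start held none. The GC box was matched in 8 of the 10 windows beside 35.7% of all windows, and the E-box in 6 of the 10 beside 20.2%. The overlapping windows of Ocln share an E-box, which counts in both. The hypoxia response core ACGTG was matched in 2 of the 10 windows beside 19.6% of all, and the Grainyhead-like motif AACCNGTT in 0 of the 10 beside 2.09%. The TATA box TATAAA was matched in 1 of the 10, that of Cldn2, beside 13.6%. Motifs were searched on both strands. The GC content of the 10 windows was 51.3% to 68.0%, with a median of 52.7% over all windows. The shares over all windows were not matched for GC content. Among the called genes, Cldn7 and Ocln had a match to the EGR1 core in a window, and Cldn1 and Cldn6 had none. Of the tested genes that were not called, Tjp1 had a match and Cldn3 and Cldn4 had none. Whether matches go with changes was not tested. A match is a description of the letters and not a site of binding.

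The levels of the 9 genes followed the same order in all 3 groups. Cldn4 was the highest, followed by Cldn1, Cldn3, Cldn7, Tjp1, Cldn6, Ocln, Cldn2 and Cldn8, and in each group the ranges of neighbours in this order did not overlap. The narrowest step was that from Cldn1 to Cldn3 in Sham, where the ratio of the means was 1.07. The values of Cldn1 gave whole reads with a length of 3247 bases, beside 4841 in GENCODE M21. Its place above Cldn3 therefore depends on the gene model, and the order with another length was not tested. In EGR1OV the step from Tjp1 to Cldn6 widened from a ratio of 1.11 in Sham to 2.89, and that from Cldn6 to Ocln shrank from 3.09 to 1.82.

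**Figure D1:**
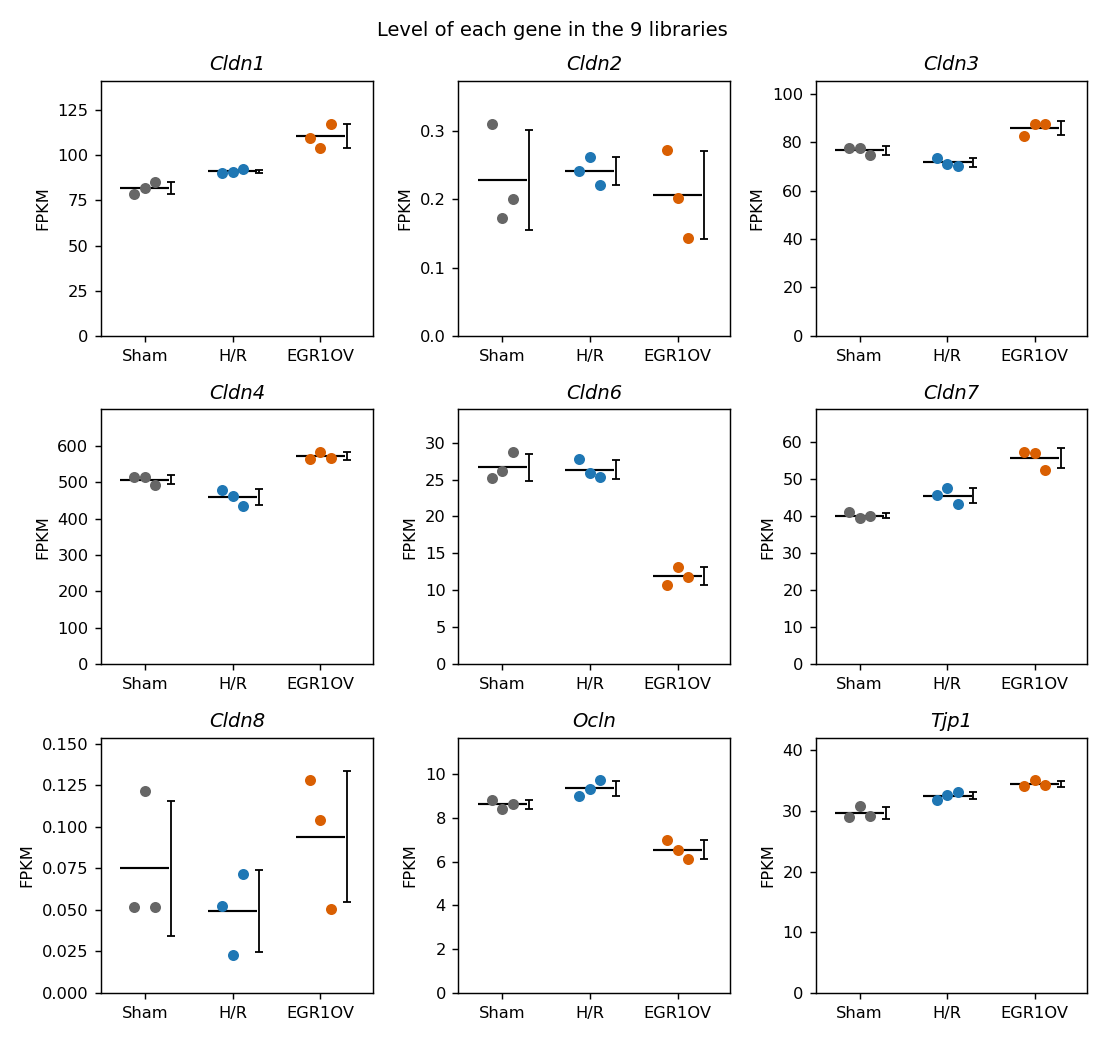
Level of each of the 9 genes in FPKM (y axis, linear and starting at 0, with its own scale in each panel) in the 3 groups (x axis). Points are libraries, horizontal lines are group means and bars at the right of each group are SDs (n = 3). The EGR1OV libraries of Cldn6 and Ocln sit below all others and those of Cldn1, Cldn3, Cldn4, Cldn7 and Tjp1 above all others, while Cldn2 and Cldn8 lie near the detection floor.

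Against Sham, the EGR1OV libraries held more Cldn1 and Cldn7 and less Cldn6 transcript. This comparison addresses how the junction genes stood after the Egr1 plasmid. A gene was called when its adjusted p by limma was under 0.05 and its change reached 1.3-fold on the log2(FPKM + 1) scale, which understates the change of low genes. Of the 9 genes, 7 had a mean of at least 0.5 FPKM and were tested, and 3 of these 7 were called, 2 higher and 1 lower. The background was 16.4% of the 13985 genes tested, with 9.87% higher and 6.51% lower. The higher ones made up 60.3% of all genes called, but 54.8% under median-ratio scaling and 45.9% under quantile normalization, so the balance of the whole table depended on the scaling. By the adjusted p alone all 7 passed, 5 higher and 2 lower, where 45.9% of all genes did, 26.1% higher and 19.8% lower. The median log2 change was 0.17 over the 7 genes and 0.017 over all genes tested. In all 7 genes the Sham and EGR1OV libraries did not overlap, which was so for 55.7% of all genes.

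Cldn6, a claudin best known from embryonic epithelia and pluripotent cells, had the largest change of the 7 genes tested. It was at 25.2, 26.1 and 28.7 FPKM in Sham, at 27.8, 25.8 and 25.3 FPKM in H/R and at 10.8, 13.2 and 11.8 FPKM in EGR1OV. The EGR1OV libraries stood apart from all 6 others, and the Sham and H/R libraries were mixed. The fall from 26.7 ± 1.83 (SD, n = 3) to 11.9 ± 1.21 FPKM was a log2 change of -1.10 ± 0.072 (SE), with an adjusted p of 1.94e-06 by limma. The values rest on 270 to 715 reads per library. Against H/R the log2 change was -1.08, with an adjusted p of 2.02e-06 by limma. Its nearest neighbour with expression, Tnfrsf12a at 1915 bp, had a mean of 359 FPKM and a log2 change of 0.061 in EGR1OV against Sham, which was not called (adjusted p of 0.253 by limma).

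Cldn7, a claudin of the basolateral membrane as well as the junction, was at 41.1, 39.5 and 40.1 FPKM in Sham, at 45.8, 47.6 and 43.4 FPKM in H/R and at 57.4, 57.2 and 52.6 FPKM in EGR1OV. The 3 groups formed 3 steps with no overlap between them. In EGR1OV it was 0.46 ± 0.043 (SE) above Sham on the log2 scale, with an adjusted p of 2.37e-05 by limma, which was called. Elp5, which ends 336 bp from Cldn7 on the opposite strand, was not called in any comparison.

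Cldn1, a sealing claudin without which the epidermal barrier fails, was at 78.6, 81.9 and 85.1 FPKM in Sham, at 90.3, 90.7 and 92.2 FPKM in H/R and at 109.6, 104.0 and 117.4 FPKM in EGR1OV. As for Cldn7, the groups formed 3 separate steps, with Sham lowest and EGR1OV highest. The mean rose from 81.9 ± 3.23 to 110.4 ± 6.73 FPKM (SD, n = 3), a log2 change of 0.43 ± 0.044 (SE) with an adjusted p of 4.84e-05 by limma. Under quantile normalization the log2 change was 0.36, just short of 1.3-fold, so the call was lost and, with Ocln then called, 1 of the 7 genes was called higher and 2 lower.

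Cldn3 and Cldn4, both barrier-forming claudins and receptors of a Clostridium perfringens enterotoxin, had the same order of groups. Cldn4 was at 513, 514 and 492 FPKM in Sham, at 479, 463 and 434 FPKM in H/R and at 562, 582 and 566 FPKM in EGR1OV. Cldn3 was at 77.5, 77.7 and 74.6 FPKM in Sham, at 73.6, 71.1 and 70.2 FPKM in H/R and at 82.4, 87.3 and 87.6 FPKM in EGR1OV. For both genes H/R was the lowest group and EGR1OV the highest, with no overlap between groups. In EGR1OV against Sham the log2 change was 0.17 for Cldn4 (adjusted p of 0.00464 by limma) and 0.16 for Cldn3 (adjusted p of 0.00288 by limma). Neither reached 1.3-fold, so neither was called. The ratio of Cldn3 to Cldn4 was 0.151 ± 0.000391 for Sham, 0.156 ± 0.00468 for H/R and 0.150 ± 0.00410 for EGR1OV (SD, n = 3). Over the 9 libraries the log2 levels of the pair had a Pearson r of 0.972, as a description of libraries that share 3 conditions. The next gene beside Cldn4, Mettl27 at 2481 bp, was not called in any comparison.

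Occludin was lowest in EGR1OV. It was at 8.84, 8.42 and 8.62 FPKM in Sham, at 9.02, 9.34 and 9.72 FPKM in H/R and at 7.003, 6.52 and 6.14 FPKM in EGR1OV. The EGR1OV libraries lay below all others and the H/R libraries above all others. Against Sham the log2 change of -0.35 ± 0.048 (SE) had an adjusted p of 0.000295 by limma but was just under 1.3-fold, so it was not called. It was called with a pseudocount of 0.1 (-0.39), under quantile normalization (-0.44), by limma voom on recovered reads (-0.40) and without EGR1OV replicate 1 (-0.39). Against H/R the log2 change of -0.46 was called, with an adjusted p of 4.85e-05 by limma.

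Tjp1 was at 29.0, 30.8 and 29.1 FPKM in Sham, at 31.8, 32.6 and 33.1 FPKM in H/R and at 34.1, 35.0 and 34.2 FPKM in EGR1OV. The groups again formed 3 steps with no overlap, but the steps were small. The log2 change of 0.21 ± 0.031 (SE) in EGR1OV against Sham had an adjusted p of 0.000433 by limma and did not reach 1.3-fold. The scaffold and occludin, which bind each other at the junction, thus had values on opposite sides of Sham in EGR1OV.

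Cldn2 and Cldn8 were close to the floor and were not tested. Cldn2 was at 0.311, 0.173 and 0.200 FPKM in Sham, at 0.242, 0.262 and 0.220 FPKM in H/R and at 0.272, 0.202 and 0.143 FPKM in EGR1OV, from 8 to 17 reads per library. The groups of Cldn2 overlapped, and with no filter on low values its adjusted p by limma was 0.820 for EGR1OV against Sham. Cldn8 rested on 1 to 5 reads per library, around the floor of 3 reads, so no fold is given. With so few reads, no difference was detected in Cldn2, and one in Cldn8 was not detectable at this depth.

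**Figure D2:**
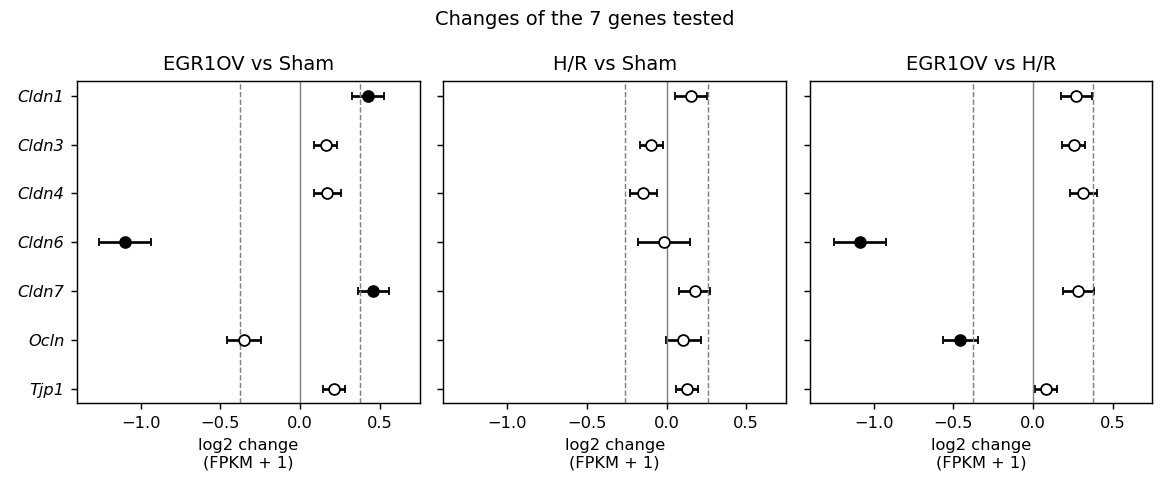
Log2 change of FPKM + 1 (x axis) of the 7 genes tested (y axis) in the 3 comparisons. Points are limma estimates with 95% confidence intervals, filled where called, and dashed lines mark 1.3-fold or, for H/R vs Sham, 1.2-fold. Cldn6 lies farthest from 0 with -1.10 and -1.08 in the comparisons of EGR1OV, and no gene passes the lines in H/R vs Sham.

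H/R against Sham addresses how the junction genes stood after hypoxia and reoxygenation. None of the 7 genes tested reached 1.2-fold, the threshold used here, so 0 of 7 were called by limma, beside 4.25% of all genes. Limma voom on recovered reads also called 0. Of all genes called 37.7% were higher, but 58.2% under median-ratio scaling and 56.5% under quantile normalization. At an unadjusted p under 0.05 there were 5 of 7, and by the adjusted p alone 3 of 7 passed, beside 11.7% of all genes, 4.15% higher and 7.54% lower. Those 3 were Cldn7 (log2 change of 0.18, adjusted p of 0.0324 by limma), Tjp1 (0.13, adjusted p of 0.0289) and, in the other direction, Cldn4 (-0.14, adjusted p of 0.0388). Cldn1 had a log2 change of 0.15 (adjusted p of 0.0567), Ocln of 0.10 (adjusted p of 0.193) and Cldn3 of -0.10 (adjusted p of 0.0916). In 6 of the 7 genes the libraries of both groups did not overlap, beside 33.6% of all genes, and Cldn6 was the exception. The difference in Cldn6 was -0.017 on the log2 scale, with a 95% confidence interval from -0.18 to 0.15, and its sign turned under median-ratio scaling (0.023). The median log2 change was 0.10 over the 7 genes and -0.030 over all genes tested.

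Between the treated groups, EGR1OV against H/R, 2 of the 7 genes were called, Cldn6 and Ocln, both lower. The background was 18.9% of all genes, with 11.9% higher and 6.94% lower. The higher ones made up 63.2% of the genes called, but 50.9% under median-ratio scaling and 42.5% under quantile normalization. By the adjusted p alone 6 of 7 passed, 4 higher and 2 lower, beside 51% of all genes, 32% higher and 19% lower. The log2 change was 0.32 for Cldn4, 0.28 for Cldn7, 0.27 for Cldn1 and 0.26 for Cldn3, all short of 1.3-fold. Tjp1 differed by 0.081 (adjusted p of 0.0528 by limma), with a 95% confidence interval from 0.011 to 0.15, and the sign turned under quantile normalization (-0.020). The libraries did not overlap in any of the 7 genes, beside 58.6% of all genes. The median log2 change was 0.26 over the 7 genes and 0.055 over all genes. This comparison shares its EGR1OV libraries with the first and its H/R libraries with the second.

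The makeup of the claudin transcripts was read as shares of the summed FPKM of the 26 claudins in the table. Cldn4 made up most of the sum, with 65.8% ± 0.899 for Sham, 62.5% ± 0.900 for H/R and 65.7% ± 0.557 for EGR1OV (SD, n = 3). Cldn1 held 10.6% of the Sham sum, 12.4% of the H/R sum and 12.7% of the EGR1OV sum, and Cldn7 held 5.23%, 6.22% and 6.43% in the same order, so both shares were lowest in Sham. The share of Cldn3 was close to level at 9.95%, 9.78% and 9.89%. Cldn6 held 3.47% in Sham and 3.59% in H/R, but 1.37% in EGR1OV. Cldn12, a claudin outside the 9 genes, had mean shares of 4.56% (Sham), 5.16% (H/R) and 3.43% (EGR1OV). The shares of Cldn1, Cldn7 and Cldn12 did not overlap with those of Sham for either treated group. For Cldn4 this was so only after H/R, for Cldn6 only after the Egr1 plasmid, and for Cldn3 in neither case. Each comparison without overlap had an exact two-sided permutation p of 0.1, the smallest that 3 against 3 libraries can give. Summed over all claudins Sham libraries reached 769 ± 9.68 FPKM, H/R libraries 733 ± 25.8 FPKM and EGR1OV libraries 867 ± 11.5 FPKM (SD, n = 3). These sums did not overlap between groups, with the same exact p of 0.1 for each pair. A sum of FPKM moves most with Cldn4.

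**Figure D3:**
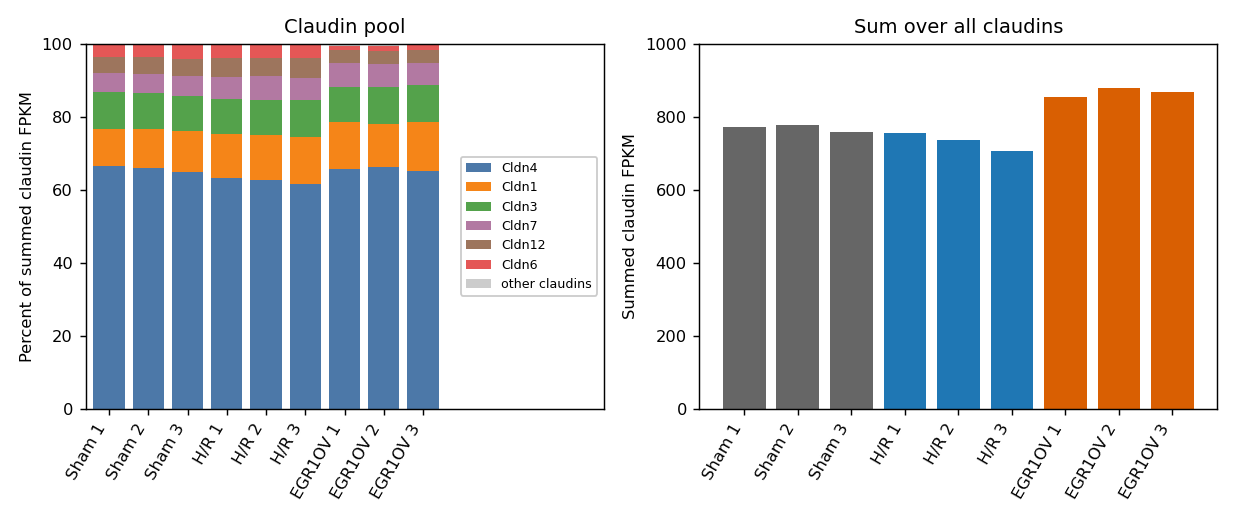
Left, share of each claudin in the summed claudin FPKM (y axis, percent) per library (x axis), with the remaining claudins pooled as other claudins. Right, the summed claudin FPKM (y axis) per library, colored by group. Cldn4 fills 61.5% to 66.5% of every bar, the band of Cldn6 is narrower in the 3 EGR1OV libraries, and the sums are highest in EGR1OV.

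Of the 19 claudins in the table outside the 7, 17 had a mean under 0.5 FPKM. The other two were Cldn12, an atypical claudin without a PDZ-binding end, and Cldn23. Cldn12 averaged 35.1 ± 1.24 FPKM for Sham, 37.8 ± 0.693 FPKM for H/R and 29.8 ± 0.640 FPKM for EGR1OV (SD, n = 3), and its log2 change of -0.23 in EGR1OV against Sham (adjusted p of 0.000347 by limma) did not reach 1.3-fold. Cldn23 rose from 0.687 ± 0.0973 to 1.55 ± 0.154 FPKM, a log2 change of 0.59 with an adjusted p of 0.000473 by limma.

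Other genes of the junction, its regulators and transcription factors of junction genes were read from lists of 72 genes. Of these, 52 passed the filter on low values. All are counted together as the other junction genes. In EGR1OV against Sham 14 of these 52 were called, 7 higher and 7 lower, beside the background of 16.4% of all genes (9.87% higher and 6.51% lower), against which the counts by list are also to be read, and the median log2 change was -0.0011, beside 0.017 over all genes. In EGR1OV against H/R 16 were called, 8 higher and 8 lower, beside 18.9% of all genes. In H/R against Sham, where 4.25% of all genes were called, 1 was called lower, the kinase Wnk4 (log2 change of -0.28, adjusted p of 0.026 by limma), and its call was lost without Sham replicate 1, without H/R replicate 1 and without H/R replicate 3, where 0 were called.

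Among the membrane proteins, 1 of 8 tested was called higher and 2 lower in EGR1OV against Sham. Ildr1, a protein of the corners where cells meet, rose from 7.04 ± 0.512 to 15.6 ± 0.461 FPKM (SD, n = 3), a log2 change of 1.05 with an adjusted p of 2.41e-07 by limma. Its relative Ildr2 was lower, with a log2 change of -0.51, as was the coxsackievirus and adenovirus receptor Cxadr, which fell from 25.7 ± 0.678 to 18.2 ± 0.0586 FPKM. Among the scaffolds and polarity proteins, 1 of 17 was called higher and 3 lower. Tjp3, which encodes zonula occludens 3, was raised from 1.18 ± 0.125 to 4.11 ± 0.881 FPKM, with a log2 change of 1.22 and an adjusted p of 5.38e-05 by limma. Lower were Amot (angiomotin, log2 change of -0.94), Prkci (atypical protein kinase C iota, -0.63) and Magi1 (-0.53).

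Among the regulators 1 of 13 was called in each direction in EGR1OV against Sham. The membrane protease St14 (matriptase) rose from 24.3 ± 0.368 to 49.4 ± 1.51 FPKM (SD, n = 3), a log2 change of 0.99 with an adjusted p of 5.63e-09 by limma. The kinase Rock2 had a log2 change of -0.56. In EGR1OV against H/R the myosin kinase Mylk was also lower, with a log2 change of -0.39. Among transcription factors of epithelial junction genes, 3 of 11 were called higher and 1 lower. The ETS factors Ehf and Elf3 rose, Ehf from 3.90 ± 0.112 to 14.8 ± 0.674 FPKM (log2 change of 1.69, adjusted p of 3.81e-09 by limma) and Elf3 from 4.14 ± 0.372 to 9.66 ± 0.359 FPKM (1.05, adjusted p of 7.33e-07). Klf4 was higher by 0.60 on the log2 scale. Twist1, a low gene at 1.25 ± 0.419 FPKM in Sham and 0.644 ± 0.211 FPKM in EGR1OV, was lower by 0.44 ± 0.15 (SE), with an adjusted p of 0.0377 by limma. The SNAI and ZEB genes of the list had positive changes, Snai2 of 0.31, Snai1 of 0.25, Zeb1 of 0.16 and Zeb2 of 0.020. None of them was called in EGR1OV against Sham, and Snai2 was called higher against H/R (0.40).

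**Figure D4:**
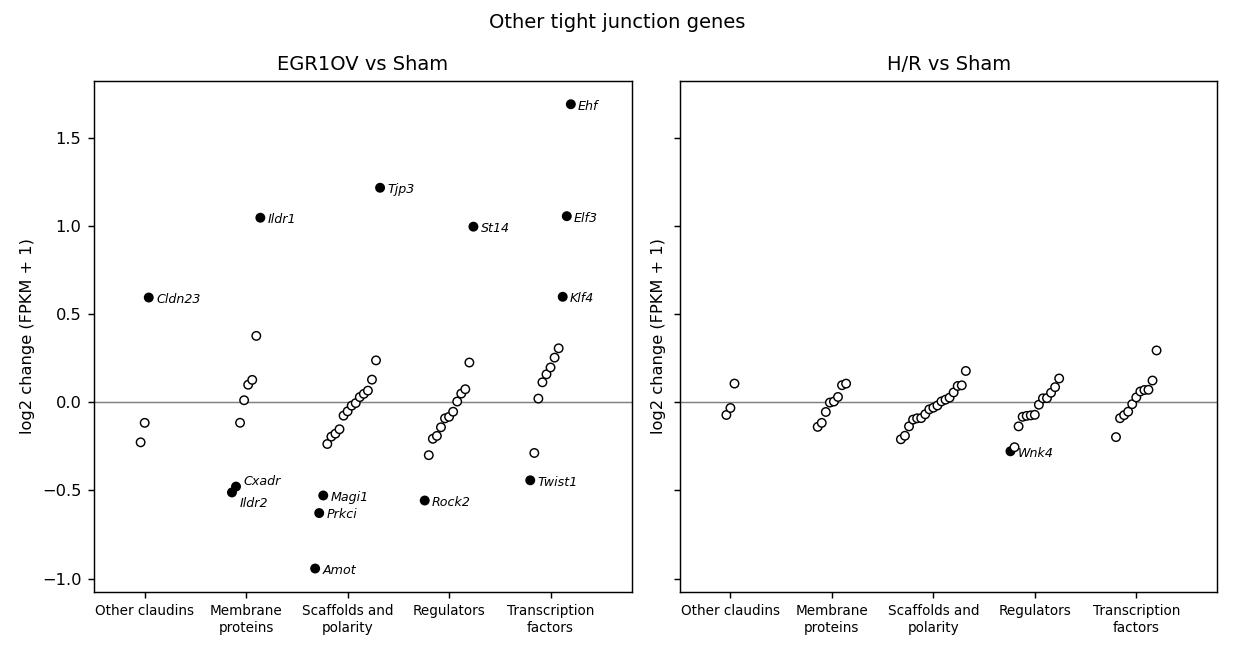
Log2 change of FPKM + 1 (y axis) of the 52 other genes tested, by list (x axis), in EGR1OV vs Sham and in H/R vs Sham. The lists hold junction proteins, regulators and transcription factors of junction genes. Each point is a gene, ordered by its change within a list, and filled and named points were called. Ehf is highest at 1.69 and Amot lowest at -0.94 in EGR1OV vs Sham, and Wnk4 is the only filled point in H/R vs Sham.

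Markers of other cells were read in the same libraries. The summed FPKM of the 13 leukocyte markers in the table ran from 158.7 to 165.9 across Sham, from 135.9 to 145.3 across H/R and from 45.2 to 53.1 across EGR1OV, and 9 of the 10 tested were called lower in EGR1OV against Sham, whereas Ptprc averaged under 0.5 FPKM over the 9 libraries. The other marker tested, Cd14, was called higher, from 5.46 ± 0.607 to 18.0 ± 1.87 FPKM (SD, n = 3). The sum of the 10 fibroblast and mural markers was 2911 to 3026 in Sham, 2659 to 2854 in H/R and 1146 to 1215 in EGR1OV, with 1 of the 6 tested called higher and 2 lower, while Pdgfra, Dcn and Lum averaged under 0.5 FPKM over the 9 libraries. Nearly all of this sum was the smooth muscle actin gene Acta2, at 2947 ± 63.7 FPKM in Sham and 1131 ± 38.9 FPKM in EGR1OV, and its log2 change was -1.38. Tagln was called lower as well (-0.87), whereas Col1a2 was called higher (0.45). Of the 4 proximal tubule markers tested, Lrp2 (log2 change of -1.05) and Aqp1 (-0.75) were called lower, Ggt1 (0.45) was called higher and Lap3 was not called, and the list summed to 30.8 to 32.1 in Sham, 26.5 to 28.7 in H/R and 24.7 to 27.8 in EGR1OV. The 8 endothelial markers summed to 16.7 to 17.4 in Sham, 17.0 to 18.1 in H/R and 13.5 to 14.5 in EGR1OV. Of the 6 tested, Pecam1 (log2 change of -0.46) was called lower in EGR1OV against Sham and the other 5 were not called. The 9 epithelial markers summed to values that ran from 1995 to 2035 across Sham, from 1853 to 1935 across H/R and from 1299 to 1404 across EGR1OV. Most of this sum was Krt8, at 1014 ± 11.8 FPKM in Sham and 618 ± 37.5 FPKM in EGR1OV, and Krt18, at 685 ± 13.3 and 412 ± 15.9 FPKM. Within these 9, Krt8 (log2 change of -0.71), Krt18 (-0.73) and Krt19 (-0.92) were called lower and Epcam (0.39) higher. Among those not called, Pax2 (0.36), Cdh1 (0.23), Cdh6 (0.22) and Pax8 (0.042) had positive changes and Cdh16 (-0.30) a negative one. The 6 collecting duct markers in the table summed to 15.6 to 17.2 across Sham, 23.8 to 25.6 across H/R and 30.7 to 31.1 across EGR1OV. This sum was nearly all 1 gene, Hsd11b2, at 16.0 ± 0.720 FPKM in Sham, 24.7 ± 1.12 FPKM in H/R and 30.3 ± 0.137 FPKM in EGR1OV. Hsd11b2 was the only one tested and was called higher in both treated groups against Sham. The other 5 averaged under 0.5 FPKM over the 9 libraries. These values moved with the groups in which Cldn1, Cldn6, Cldn7 and Ocln moved, and their part in those results was not tested.

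The genes whose log2 levels followed each junction gene most closely over the 9 libraries were sought among the 7581 genes that averaged 5 FPKM or more. They were Bst1 (Pearson r of 0.992) and Pkm (0.984) for Cldn1, Sh3bgrl3 (0.996) and Cc2d1a (0.991) for Cldn3, and Prpsap1 (0.989) and Psmb7 (0.986) for Cldn4. For Cldn6 they were Cotl1 and Myo1c (0.994 each), for Cldn7 Lmcd1 (0.988) and Sec31a (0.983), for Ocln Zfp266 (0.993) and Vkorc1l1 (0.988), and for Tjp1 Dusp2 (0.969) and Sox9 (0.968). The libraries share 3 conditions, so these values describe the group pattern.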

How the data were processed

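RNA was sequenced from 9 libraries, 3 each of Sham, H/R and EGR1OV, grouped by the sample labels. One FPKM table, with a value per gene and library, was deposited by the authors, and replicates were not pooled in it. The submitters' processing notes name Bowtie2 2.2.3, HISAT2 2.1.0, TopHat2 and mm9, without their roles, whereas 94.6% of the gene positions in the table equal GENCODE M21 (GRCm38). FPKM are not counts, so log2(FPKM + 1) was tested with limma 3.58.1 (under R 4.3.3, using lmFit and a trended eBayes, two-sided, Benjamini-Hochberg adjustment) in a single fit of 9 libraries over the 13985 genes that averaged 0.5 FPKM or more. The fold thresholds against Sham are those the study states, and 1.3-fold was set here for the 2 treated groups. Of 162962 low and middle values, 94.0% were whole within 0.02 reads when divided by the step of a read, with GENCODE exon lengths. Cldn1 and Cldn6 gave whole reads with lengths of 3247 and 1506 bases, which differ from GENCODE M21. Their levels beside other genes, and the claudin shares, depend on the lengths used. Floors and read numbers cover counting error only. The 9 genes and all lists were chosen with earlier results of these data known. Named genes are the 9, Egr1, up to 4 called genes with the largest change per list and comparison, claudins of at least 5 FPKM, the 2 most similar genes per member and the nearest expressed neighbours. The marker genes, the SNAI and ZEB genes and the antisense gene were named outside that rule, after their values were seen. The fit was also run on simulated data with an assumed spread and with changes beyond the fold thresholds used. That run does not cover calls near those thresholds. The remaining steps ran in Python 3.11.15 (scipy 1.17.1, pandas 2.3.3, matplotlib 3.10.9).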

Additional observations from a re-analysis of the deposited data

How the results depend on the processing

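The result set is limited by 3 libraries per group, by FPKM without deposited counts and by fold thresholds close to the changes seen. The count of the 9 genes called (3 in EGR1OV against Sham, 0 in H/R against Sham, 2 in EGR1OV against H/R) was within 1.5 times of its value in each alternative tried, except those on the fold. With no fold threshold the counts were 7, 3 and 6 of the 9 genes and 6417, 1635 and 7135 of all genes. Of the other junction genes, regulators and transcription factors included, the counts were 32, 5 and 34. At 1.5-fold they were 1, 0 and 1 of the 9 genes, 1106, 50 and 1243 of all genes, and 9, 0 and 9 of the other junction genes. Among genes averaging 5 FPKM or more, where fewer genes were tested, all genes called were 1315, 372 and 1520 and the other junction genes 9, 0 and 9. By limma voom on recovered reads H/R against Sham had 1001 genes called and 2 of the other junction genes, and the cause was not tested. The single call among the other junction genes in H/R against Sham, Wnk4, became 0 with no filter on low values, under median-ratio scaling, under quantile normalization, with the replicate block and with only the 2 groups compared. Leaving out 1 library at a time gave 3 to 4, 0 to 0 and 2 to 2 of the 9 genes, 2227 to 2361, 449 to 580 and 2570 to 2687 of all genes, and 13 to 14, 0 to 1 and 14 to 17 of the other junction genes. The share of Cldn4 then ran from 65.5% to 66.3% in Sham, 62.1% to 63.0% in H/R and 65.5% to 66.0% in EGR1OV, and among the 7 claudins alone it was 69.2%, 66.1% and 68.3%. The sign turned for Cldn6 in H/R against Sham under median-ratio scaling (0.023), without Sham replicate 3 (0.036) and without H/R replicate 3 (0.0091), with -0.056 to 0.036 over the libraries left out in turn, and for Tjp1 in EGR1OV against H/R under quantile normalization (-0.020), both from changes that were not called. The groups share replicate numbers, but deviations of equally numbered libraries correlated from -0.20 to 0.26 and not all pairs were over 0.1, so the numbers were not taken as a pairing. With the replicate block 3, 0 and 2 of the 9 genes, 2309, 516 and 2654 of all genes and 14, 0 and 16 of the other junction genes were called. A covariate for the abundant small RNA Gm23935, which varied between libraries of each group and was chosen after seeing the data, gave 3, 0 and 2 of the 9 genes.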
